A study of Mus musculus with 18 samples.

Results

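The genes described here are 38 transcripts that mark astrocytes, the star-shaped glial cells of the brain. They were taken as a fixed list of astrocyte symbols, chosen with earlier results of these data known. Shares of the list set beside shares of all genes are therefore descriptive. The symbols were matched by Ensembl identifier to the gene table, in which all 38 were found among 55401 genes. All 38 had enough counts to be among the 18994 genes tested. Polyadenylated RNA was sequenced from the BNST, the bed nucleus of stria terminalis, a limbic forebrain nucleus beside the lateral ventricle, and from the prelimbic medial prefrontal cortex (mPFC) of adult male wild-type C57BL/6 mice aged 6 to 8 weeks. The formalin group, a model of acute pain, was collected 24 h after 10 μL of 1% formalin was given into the hind paw, and the CFA group, a model of persistent pain, 72 h after 10 μL of 50% complete Freund's adjuvant. The control group received neither agent by the methods, although the figure legends call it sham-treated. Each of the 6 groups held 3 libraries, 1 per mouse and region, and 3 mice per group limit what any comparison can detect. The agents were also sampled at unlike times, so agent and time cannot be told apart.

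Astrocytes clear glutamate and GABA from synapses and turn glutamate into glutamine, buffer water and ions, couple to each other through gap junctions, store glycogen, convert thyroid hormone and secrete lipoproteins and protease inhibitors. When tissue is injured or inflamed they often make more of the intermediate filament protein GFAP, a state called reactive. The RNA came from whole tissue, so more astrocytes and more RNA per astrocyte cannot be told apart, and several of the 38 genes are also made by other cells: Apoe and Cst3 by microglia, Vim by ependyma and vessels, and Slco1c1 by the choroid plexus and brain endothelium.

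The libraries held 14781315 to 23408503 counts. Levels are given as CPM, read counts scaled to library size with TMM factors. Changes are log2 fold changes from 1 edgeR quasi-likelihood model of all 18 libraries, given with their standard errors, and a gene is called changed at a Benjamini-Hochberg adjusted p under 0.05 over all genes tested together with an absolute log2 fold change above 0.5. The BNST libraries differed in the summed markers of neighbouring tissue, and whether they held unlike amounts of that tissue was not tested. The 10 choroid plexus markers, led by Ttr, summed to 3042 to 9101 CPM after formalin, 221 to 18226 CPM after CFA and 62.4 to 801 CPM in controls. In the CFA group the high value belonged to replicate 2 alone, against 269 and 221 CPM in replicates 1 and 3. The 7 striatal markers summed to 1120 to 1596 CPM after formalin, 225 to 583 CPM after CFA and 1289 to 3207 CPM in controls, and the 6 habenular and thalamic markers to 40.7 to 98.1 CPM after formalin, 128 to 188 CPM after CFA and 7.99 to 155 CPM in controls. The 9 ependymal markers tested summed to 325 to 348 CPM after formalin, 160 to 330 CPM after CFA and 128 to 238 CPM in controls. In the mPFC the choroid plexus sum was between 4.2 and 28.8 CPM in every library. Lane 1 held BNST control replicates 1 and 2, lane 3 held BNST formalin replicate 1, and lane 2 held the rest. One member is uncertain by position: the exons of Slc7a10, an amino acid transporter, share 377 bases with Lrp3 on the opposite strand, with 10935 counts for Slc7a10 and 30025 for Lrp3 over all libraries, and whether counting used strand is not given in the sources used here.

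**Figure D1:**
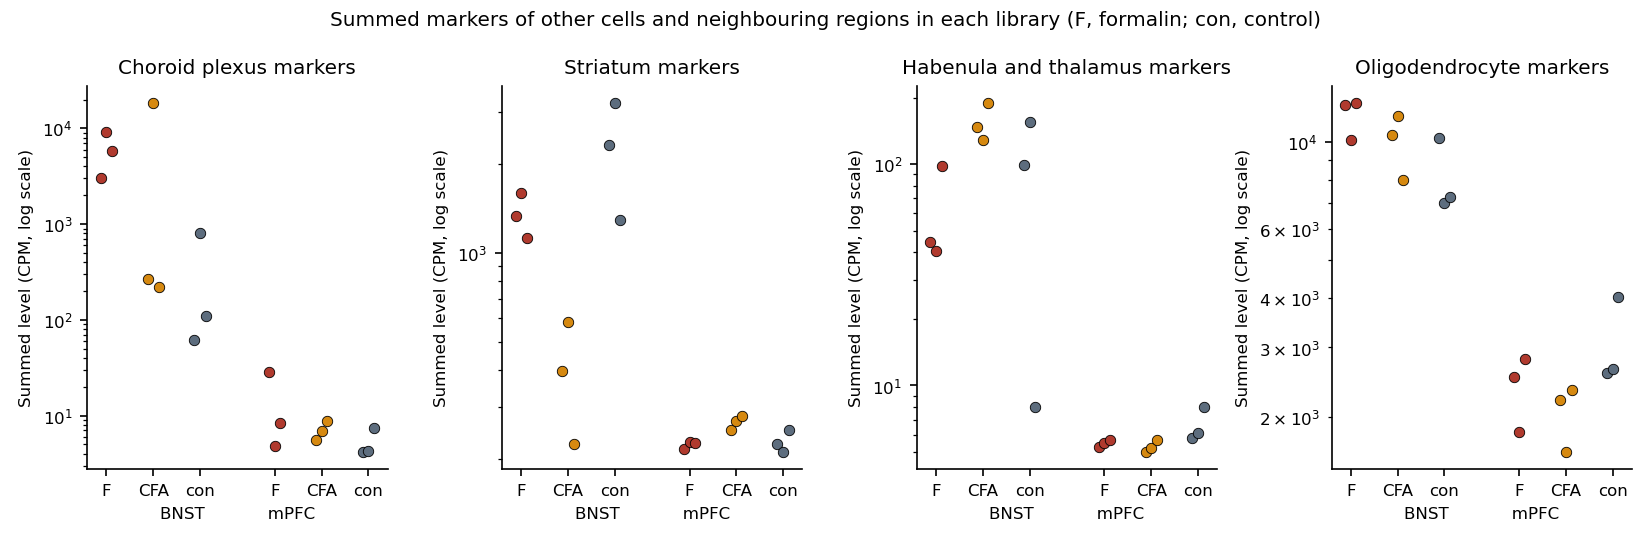
Summed CPM of markers of the choroid plexus, striatum, habenula and thalamus, and oligodendrocytes (log axes) in each library, with 3 points per group. All BNST formalin libraries and CFA replicate 2 stand at 3042 CPM or more for choroid plexus markers, the BNST CFA libraries are lowest among BNST groups for striatal markers, and the mPFC libraries are at 28.8 CPM or less for choroid plexus markers.

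Of the library size scaled with TMM factors, the 38 genes together took 1.46% to 1.56% in BNST formalin libraries, 1.78% to 1.84% in BNST CFA libraries and 1.32% to 1.58% in BNST control libraries. In the mPFC the shares were 1.43% to 1.54% after formalin, 1.43% to 1.65% after CFA and 1.30% to 1.40% in controls. The CFA libraries of the BNST thus lay above every other BNST library on this scale. The shares of unscaled counts were not computed. Per length of transcript, in TPM, the secreted proteins and glutamine synthetase stood highest. In the BNST of control mice Apoe, the main lipid carrier of the brain, averaged 2781 ± 157 TPM, Cst3, the protease inhibitor cystatin C, 2673 ± 556 TPM and Sparcl1, a secreted synapse-promoting protein, 2411 ± 113 TPM (SD, n = 3). In the mPFC of control mice the highest were Sparcl1 with 2346 ± 30 TPM, Apoe with 1906 ± 173 TPM and Glul with 1773 ± 122 TPM (SD, n = 3). In the BNST the lowest was Cbs at 19.9 ± 3.3 TPM, and in the mPFC it was Agt at 6.67 ± 1.94 TPM. In GRCm38 with GENCODE M21, the genes that the results turn on most lie, as protein-coding genes, with Gfap at chr11:102887336-102900912, Agt at chr8:124556534-124569706, Gjb6 at chr14:57123303-57133611, Htra1 at chr7:130936111-130985660, Dio2 at chr12:90724552-90738438 and Cbs at chr17:31608894-31637238.

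The first question was what the acute model did to astrocyte genes in the BNST. After formalin, 1 of the 38 genes rose and none fell, while 0.3% of all genes tested passed in either direction. The median change of the 38 was −0.00 on the log2 scale, beside −0.04 over all genes, and 19 estimates were above 0 and 19 below. The gene that rose was Aqp4, the water channel of astrocyte endfeet. Its levels were 271, 230 and 264 CPM in formalin mice, against 150, 181 and 180 CPM in control mice, and the groups did not overlap. The log2 fold change was 0.58 ± 0.13 (SE, edgeR adjusted p = 0.049). The call sat at the threshold and was lost in 14 of the 18 fits that left out 1 library, where the change ran from 0.50 to 0.65 and the adjusted p reached 0.16.

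Gfap had the same pattern with a larger estimate. Its levels were 326, 240 and 244 CPM after formalin, against 107, 96.0 and 152 CPM in controls, so that the lowest formalin library stood above the highest control library. The log2 fold change was 1.19 ± 0.28 (SE), with a 95% interval of 0.58 to 1.80 and an edgeR adjusted p of 0.084, which missed the threshold. The call was gained in 3 of the 18 fits without 1 library, namely without BNST CFA replicate 2 (adjusted p = 0.026), BNST control replicate 3 (0.040) or mPFC control replicate 3 (0.047), and with DESeq2. Slc1a2 and Aldh1l1 overlapped between the groups. The glutamate transporter Slc1a2 (GLT-1) had 3155, 2544 and 2491 CPM after formalin, against 2617, 2010 and 3085 CPM in controls, and the interval of its change ran from −0.19 to 0.36 (edgeR adjusted p = 0.76). Aldh1l1, the folate enzyme used as a general astrocyte marker, had 45.0, 53.9 and 56.8 CPM after formalin, against 67.0, 49.3 and 49.6 CPM in controls, with an interval of −0.32 to 0.14 (edgeR adjusted p = 0.70).

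Groups did not overlap for 11 of the 38 genes in this comparison, or 28.9%, against 22.4% of all genes. Vim, Clu and Slco1c1 were among them, in libraries whose choroid plexus markers were also high. Vim, a second intermediate filament gene, had 71.1, 69.3 and 61.7 CPM after formalin, against 33.4, 25.5 and 44.3 CPM in controls. Clu, the secreted chaperone clusterin, had 998, 1104 and 1036 CPM after formalin, against 760, 681 and 730 CPM in controls. Slco1c1, a thyroxine transporter, had 68.5, 126 and 92.6 CPM after formalin, against 28.3, 46.7 and 35.2 CPM in controls. None of these 3 passed, with estimates of 0.97 ± 0.27 for Vim, 0.53 ± 0.13 for Clu and 1.38 ± 0.63 for Slco1c1 (SE) and edgeR adjusted p of 0.11, 0.070 and 0.25 in that order. Without BNST CFA replicate 2, the number of members called rose to 7, namely Gfap, Aqp4, Slc7a10, Vim, Clu, Id3 and Slco1c1, and the number of all genes called to 903, against 57 with it. That library is in neither group of this comparison and enters it through what all libraries share in the model, such as the spread. Without it the estimates of Vim, Clu and Slco1c1 stayed at 0.97, 0.53 and 1.38. Their edgeR adjusted p became 0.014, 0.00032 and 0.0028 in that order. Any part of choroid plexus material in the levels of these genes was not tested.

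After CFA the BNST differed more widely. Of the 38 genes, 9 (23.7%) rose and none fell, while 11.9% of all genes passed, with 4.89% higher and 7.06% lower. The median change of the 38 genes was 0.39, beside 0.01 over all genes, and 35 of 38 estimates were above 0. The genes that rose came from all groups of function but the receptors and transcription factors: Gfap, S100b and Fam107a of the cytoskeleton and calcium binding proteins, Agt, Apoe and Htra1 of the secreted proteins, the connexin Gjb6, the zinc transporter Slc39a12, and Glul.

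**Figure D2:**
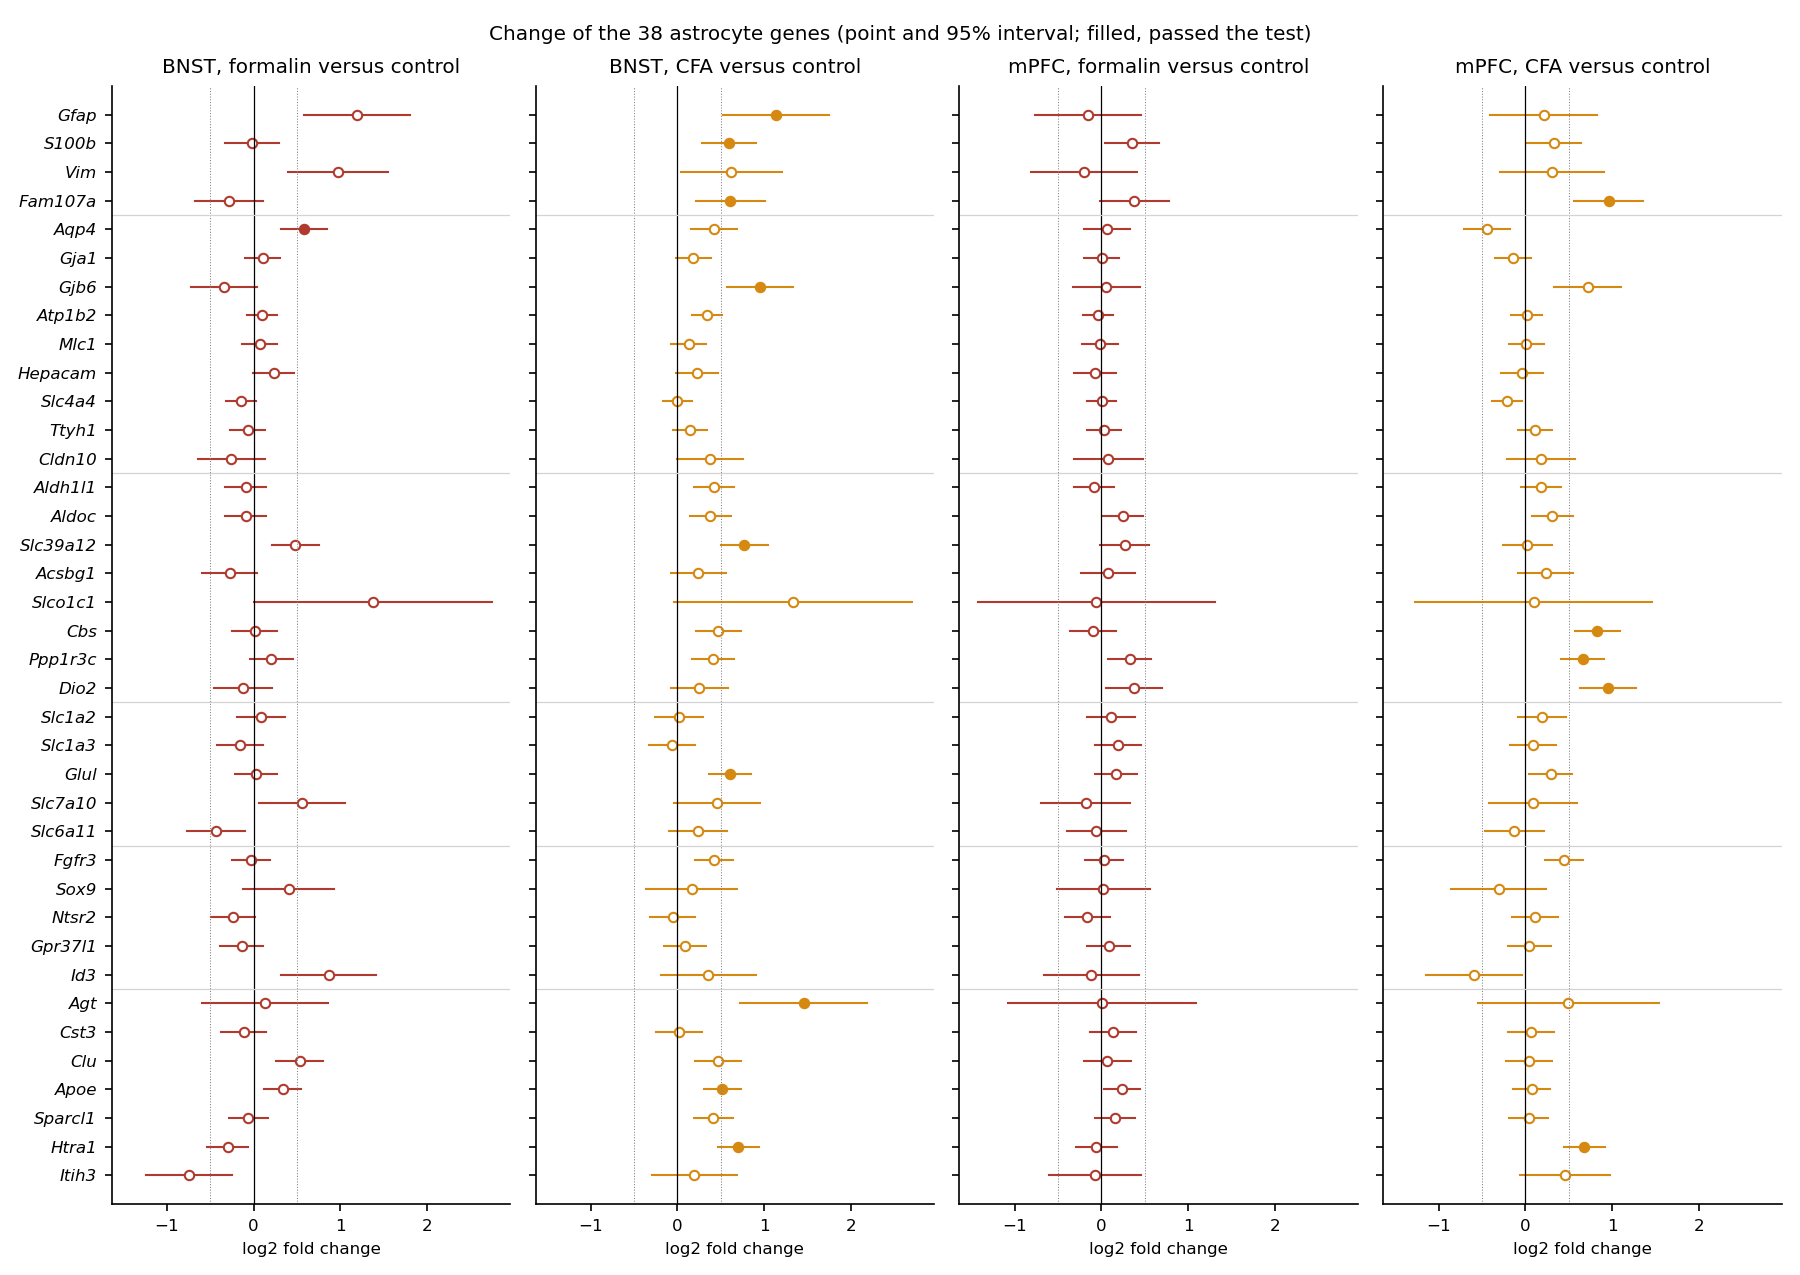
Log2 fold changes of the 38 astrocyte genes with 95% intervals for formalin and CFA against control in the BNST and in the mPFC, with filled points for genes that passed the test, dotted lines at −0.5 and 0.5, and grey lines between groups of function. After CFA 9 genes passed in the BNST and 5 in the mPFC, all of them higher, against 1 and 0 after formalin.

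Agt had the largest rise among the genes called. It encodes angiotensinogen, the precursor of angiotensin, and astrocytes are its main source in the brain. Its levels were 206, 139 and 242 CPM after CFA, against 68.0, 108 and 38.1 CPM in controls, a log2 fold change of 1.45 ± 0.34 (SE, edgeR adjusted p = 0.0086). The control libraries themselves spread widely, but none reached the lowest CFA library. With the 9 BNST libraries alone in the model, Agt (1.44, edgeR adjusted p = 0.062), S100b (0.58, adjusted p = 0.065) and Fam107a (0.60, adjusted p = 0.12) lost their calls. Gfap had 234, 319 and 227 CPM after CFA, against 107, 96.0 and 152 CPM in controls, and rose by 1.14 ± 0.28 (SE, edgeR adjusted p = 0.012). Its highest value belonged to CFA replicate 2, and without that library the change was 0.96 with an edgeR adjusted p of 0.054. Among libraries of lane 2 alone, which leave 1 BNST control, the change was 0.77 with an adjusted p of 0.24.

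The gap junction genes parted from each other. Gjb6, which encodes connexin 30, had 111, 80.1 and 114 CPM after CFA, against 67.9, 53.9 and 35.9 CPM in controls, and rose by 0.95 ± 0.18 (SE, edgeR adjusted p = 0.0016). Gja1, which encodes connexin 43, the other main astrocyte connexin, had 324, 313 and 315 CPM after CFA, against 284, 241 and 314 CPM in controls. Its change had an interval of −0.02 to 0.39, against 0.57 to 1.34 for Gjb6. The call of Gjb6 was kept in each of the 18 fits without 1 library, with changes between 0.74 and 1.18.

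Htra1, a secreted serine protease, had 214, 176 and 190 CPM after CFA, against 141, 99.6 and 116 CPM in controls, and rose by 0.70 ± 0.11 (SE, edgeR adjusted p = 0.00031), the smallest adjusted p of the list. Slc39a12 had 96.3, 142 and 94.5 CPM after CFA, against 72.9, 62.8 and 59.0 CPM in controls, and rose by 0.77 ± 0.13 (SE, edgeR adjusted p = 0.00055). Both calls held without any single library. Glul, the enzyme that makes glutamine from glutamate, had 2093, 1874 and 1879 CPM after CFA, against 1546, 1010 and 1289 CPM in controls, and rose by 0.60 ± 0.12 (SE, edgeR adjusted p = 0.0014). The neighbouring uptake genes did not follow: Slc1a2 had an interval of −0.25 to 0.30 and Slc1a3, the glutamate transporter GLAST, one of −0.32 to 0.21.

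Beside Gfap, the calls of Fam107a, S100b, Apoe and Glul turned on single libraries. Fam107a, an actin-binding protein known as a target of glucocorticoids, had 724, 648 and 740 CPM after CFA, against 652, 300 and 432 CPM in controls. These groups overlapped, the log2 fold change was 0.61 ± 0.19 (SE, edgeR adjusted p = 0.028), and without BNST control replicate 2 it was 0.38 with an adjusted p of 0.068. The call was also lost without control replicate 3 (0.56, edgeR adjusted p = 0.099), CFA replicate 1 (0.59, adjusted p = 0.067) and CFA replicate 3 (0.57, adjusted p = 0.067). S100b, a calcium-binding protein, had 126, 105 and 110 CPM after CFA, against 99.4, 67.8 and 58.4 CPM in controls (0.59 ± 0.15, SE, edgeR adjusted p = 0.0090), and without control replicate 3 the change was 0.44. Apoe had 1918, 2351 and 1932 CPM after CFA, against 1419, 1445 and 1470 CPM in controls (0.52 ± 0.10, SE, edgeR adjusted p = 0.0015), and without CFA replicate 2 the change was 0.42, below the minimum for a call. For Glul the change without control replicate 2 was 0.46.

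Further members passed the adjusted p but not the minimum change. Without a minimum, 18 of the 38 genes were called, all of them higher, among them Aqp4 with 0.42 ± 0.13 (SE, edgeR adjusted p = 0.023), Aldh1l1 with 0.42 ± 0.11 (adjusted p = 0.011), and Fgfr3, a growth factor receptor, with 0.42 ± 0.10 (adjusted p = 0.0076). Aqp4 had 208, 259 and 218 CPM after CFA, against 150, 181 and 180 CPM in controls, and Aldh1l1 had 67.4, 77.4 and 77.7 CPM after CFA, against 67.0, 49.3 and 49.6 CPM in controls. The groups were apart for both, by less than 1 CPM for Aldh1l1. In all, 16 of the 38 genes, or 42.1%, did not overlap between CFA and control mice, against 31.5% of all genes.

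CFA replicate 2 stood apart within its group. In it 5 of the 38 genes were at least 1.5 times as high as the mean of the other CFA libraries. The share of all genes at such a ratio was not computed. Slco1c1 had 221 CPM in replicate 2 and 28.3 and 28.9 CPM in replicates 1 and 3, a ratio of 7.72. The ratio was 2.17 for Slc7a10, 2.10 for Id3, 1.86 for Vim and 1.54 for Clu. Toward the other end stood Agt with a ratio of 0.62, Itih3 with 0.65 and Gjb6 with 0.71, and the median ratio of the 38 genes was 0.89. The summed choroid plexus markers were 18226 CPM in this library. Without it, 10 members were called higher after CFA, namely Gjb6, S100b, Fgfr3, Glul, Slc39a12, Agt, Sparcl1, Fam107a, Htra1 and Cbs, and Gfap and Apoe were no longer among them.

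**Figure D3:**
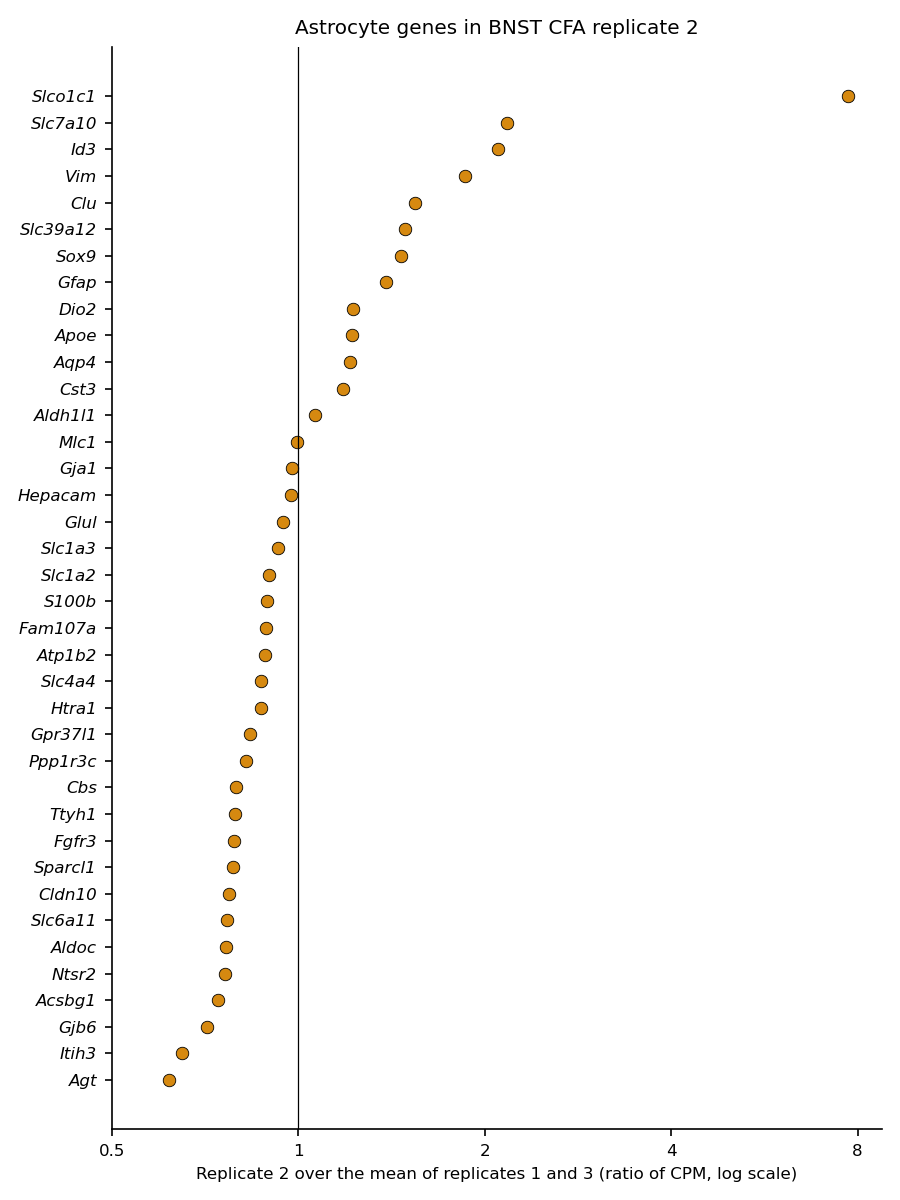
Level of each of the 38 genes in BNST CFA replicate 2 divided by its mean in replicates 1 and 3 (log axis). Slco1c1 stands at 7.72, 23 genes were below both other libraries, 12 were above both, and Agt was lowest at 0.62. The matching shares of all genes were not computed.

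The astrocyte values in the BNST after CFA stood beside changes in other lists. All 7 striatal markers were called lower and 3 of 6 habenular and thalamic markers higher, while 11.9% of all genes passed. Of the neuroblast and dividing cell markers 3 of 7 were called lower, as was 1 each of the microglial, neuronal and mural cell markers. Of 10 choroid plexus markers 1 was called higher, and of 10 oligodendrocyte markers 1 higher and 1 lower. The summed markers of oligodendrocyte precursors were 245 to 263 CPM after CFA and 260 to 283 CPM in controls, those of endothelium 78.4 to 108 CPM and 77.8 to 123 CPM, and those of neurons 4342 to 5600 CPM and 4908 to 4993 CPM. The summed microglial markers were 352 to 421 CPM after CFA and 354 to 460 CPM in controls. Whether neighbouring tissue differed, and any part of it in the astrocyte values, was not tested. The sums of mural cell markers were 73.8 to 92.7 CPM after CFA and 92.1 to 119 CPM in controls, of fibroblast markers 29.4 to 76.7 and 22.5 to 33.6 CPM, of neuroblast and dividing cell markers 91.5 to 103 and 118 to 241 CPM, and of blood markers 2.36 to 3.15 and 0.99 to 4.14 CPM. None of these markers was at 0 across a BNST group.

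Formalin was then set against CFA in the same nucleus. Of the 38 genes, 11 (28.9%) were lower after formalin and none was higher, while 6.87% of all genes passed, with 3.91% higher and 2.96% lower. Groups did not overlap for 17 of the 38, or 44.7%, against 32.1% of all genes. This comparison uses the same CFA libraries as the comparison with control. Htra1 had 99.3, 92.2 and 97.8 CPM after formalin, against 214, 176 and 190 CPM after CFA, a log2 fold change of −1.003 ± 0.11 (SE, edgeR adjusted p = 5.6e-05). Gjb6 had 39.5, 35.5 and 49.2 CPM after formalin, against 111, 80.1 and 114 CPM after CFA (−1.29 ± 0.18, SE, edgeR adjusted p = 0.00051). Fam107a had 392, 380 and 364 CPM after formalin, against 724, 648 and 740 CPM after CFA (−0.89 ± 0.19, SE, edgeR adjusted p = 0.0061). In each of these 3 genes every formalin library lay well below every CFA library.

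Itih3, Slc6a11, Cldn10, Acsbg1 and Aldh1l1, which had not been called against control, were among the 11. Itih3, a secreted protein that binds the hyaluronan matrix, had 39.3, 46.5 and 68.7 CPM after formalin, against 112, 72.9 and 112 CPM after CFA (−0.94 ± 0.23, SE, edgeR adjusted p = 0.016). Slc6a11, the GABA transporter GAT-3, had 257, 311 and 424 CPM after formalin, against 560, 439 and 586 CPM after CFA (−0.68 ± 0.16, SE, edgeR adjusted p = 0.011). Neither gene overlapped between the models. Agt had 56.7, 67.6 and 110 CPM after formalin, against 206, 139 and 242 CPM after CFA (−1.32 ± 0.34, SE, edgeR adjusted p = 0.021). Cldn10, a claudin, had 20.6, 17.9 and 23.3 CPM after formalin, against 33.4, 26.7 and 35.8 CPM after CFA (−0.63 ± 0.18, SE, edgeR adjusted p = 0.029). S100b had 73.7, 65.4 and 83.6 CPM after formalin, against 126, 105 and 110 CPM after CFA (−0.61 ± 0.15, SE, edgeR adjusted p = 0.012). The other genes called lower were Glul (−0.58), Acsbg1, an acyl-CoA synthetase (−0.52), and Aldh1l1 (−0.51). Gfap and Aqp4 did not part the models. Gfap had an interval of −0.55 to 0.66 (edgeR adjusted p = 0.92), Aqp4 of −0.10 to 0.42 (adjusted p = 0.42) and Slc1a2 of −0.21 to 0.34 (adjusted p = 0.79), so a difference of up to about those bounds remains possible for each.

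**Figure D4:**
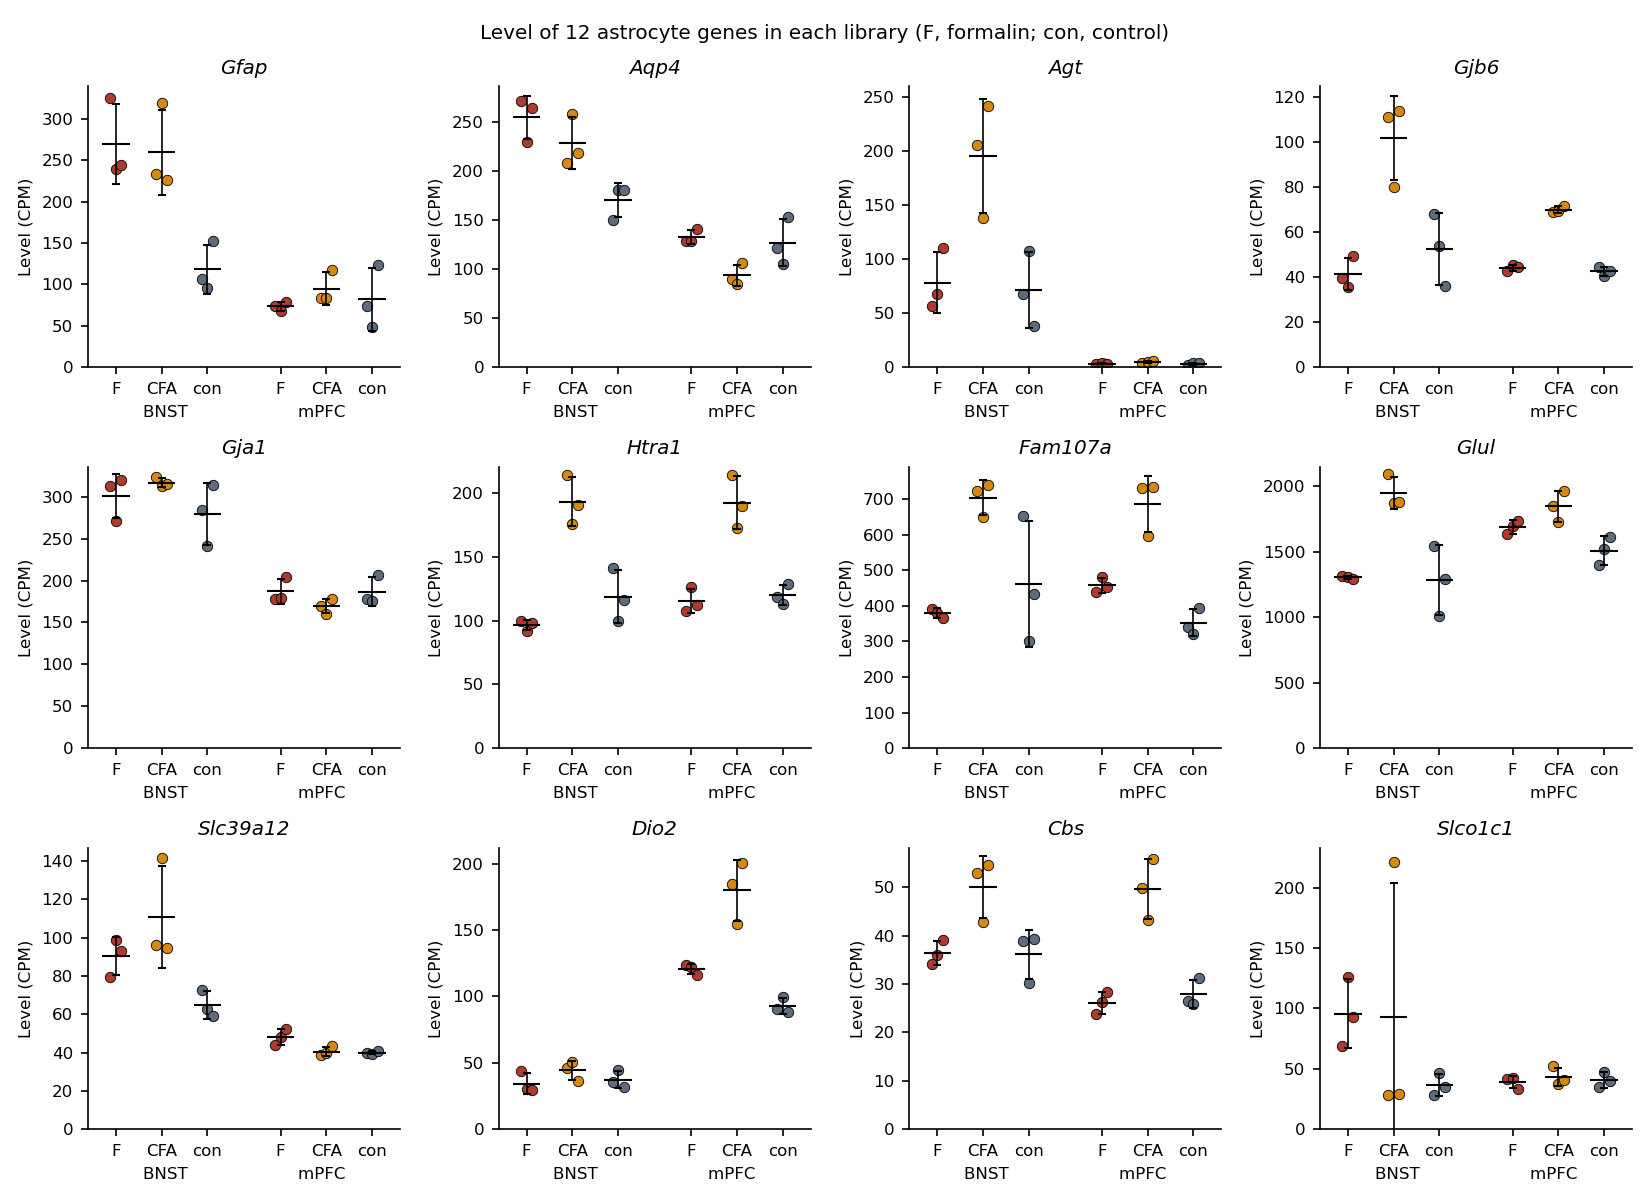
CPM of 12 astrocyte genes in every library, with formalin (F), CFA and control (con) side by side for the BNST and the mPFC; points are libraries, lines the mean and bars the SD of 3. Gfap and Aqp4 are high in both treated BNST groups. Gjb6, Htra1, Fam107a, Glul and Cbs have their highest group mean after CFA in the BNST and likewise in the mPFC. Dio2 is higher in the mPFC than in the BNST, and Agt is at 5.41 CPM or less in the mPFC.

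These calls were less firm than those against control. With BNST libraries alone in the model, Gjb6 and Htra1 were the only members called, and without single libraries the count ran from 5, without formalin replicate 2 or CFA replicate 1, to 17, without CFA replicate 2. Agt, Itih3, Acsbg1 and Cldn10 each lost the call without formalin replicate 1 or 2 or CFA replicate 1 or 3. The changes of Agt in those fits were −1.13 to −1.27, those of Itih3 −0.78 to −0.87, those of Acsbg1 −0.44 to −0.48 and those of Cldn10 −0.54 to −0.63. S100b and Slc6a11 lost it without formalin replicate 2 or CFA replicate 1, and Aldh1l1 without CFA replicate 2 or 3 or formalin replicate 1. Without CFA replicate 2, Slc7a10, Id3 and Slco1c1 were called higher after formalin.

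In the prelimbic mPFC, the acute model left no call among the astrocyte genes. After formalin 0 of 38 passed in edgeR and 0 in DESeq2, while 0.269% of all genes passed in edgeR, 0.0632% of all genes higher, and 5 of the 38 had an unadjusted p under 0.05. The estimates ran from −0.20 to 0.38 with a median of 0.03, and groups did not overlap for 12 of the 38, or 31.6%, against 26.1% of all genes. Gfap had 73.3, 68.1 and 79.2 CPM after formalin, against 73.6, 48.9 and 123 CPM in controls, with an interval of −0.77 to 0.46 (edgeR adjusted p = 0.89). Aqp4 had 128, 129 and 141 CPM after formalin, against 122, 106 and 153 CPM in controls, with an interval of −0.20 to 0.33 (edgeR adjusted p = 0.90). Both intervals leave room for moderate changes at this number of mice. The intervals were −0.17 to 0.39 for Slc1a2 and −0.32 to 0.15 for Aldh1l1 (edgeR adjusted p = 0.79 and 0.82).

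After CFA, 5 of the 38 genes (13.2%) rose in the mPFC and none fell, while 0.632% of all genes passed in either direction and 0.337% were called higher. The median change of the 38 was 0.11, beside 0.00 over all genes. Dio2, Cbs and Ppp1r3c belong to the 8 members of metabolism and hormone handling. Dio2, the deiodinase that converts thyroxine to active T3, had 185, 155 and 200 CPM after CFA, against 90.9, 99.7 and 87.9 CPM in controls, and rose by 0.96 ± 0.15 (SE, edgeR adjusted p = 0.0070). Cbs, which makes cystathionine from homocysteine, had 49.9, 43.3 and 55.8 CPM after CFA, against 26.6, 25.9 and 31.3 CPM in controls, and rose by 0.83 ± 0.12 (SE, edgeR adjusted p = 0.0035). For both genes the lowest CFA library stood well above the highest control library.

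Ppp1r3c, the subunit that directs protein phosphatase 1 to glycogen, had 51.4, 42.0 and 57.5 CPM after CFA, against 30, 34.3 and 31.1 CPM in controls, and rose by 0.66 ± 0.12 (SE, edgeR adjusted p = 0.012). Fam107a had 733, 596 and 733 CPM after CFA, against 341, 321 and 395 CPM in controls, and rose by 0.96 ± 0.19 (SE, edgeR adjusted p = 0.027). Htra1 had 214, 173 and 190 CPM after CFA, against 119, 113 and 128 CPM in controls, and rose by 0.68 ± 0.11 (SE, edgeR adjusted p = 0.0070). None of the 5 genes overlapped between the groups. Over the list, 16 of the 38 genes, or 42.1%, did not overlap, against 25.6% of all genes. Gjb6 just missed the threshold, with 68.8, 69.3 and 71.7 CPM after CFA, against 44.4, 40.3 and 42.7 CPM in controls (0.72 ± 0.18, SE, edgeR adjusted p = 0.081), and DESeq2 called it. Gja1 had an interval of −0.35 to 0.06 there.

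The general markers gave no call in the mPFC after CFA. Gfap had 83.4, 83.4 and 118 CPM after CFA, against 73.6, 48.9 and 123 CPM in controls, with an interval of −0.40 to 0.83 (edgeR adjusted p = 0.82). Aqp4 had 89.5, 84.9 and 106 CPM after CFA, against 122, 106 and 153 CPM in controls, an estimate of −0.44 ± 0.13 (SE, edgeR adjusted p = 0.12). Its highest CFA library and its lowest control library lay side by side near 106 CPM. The intervals were −0.09 to 0.47 for Slc1a2 and −0.05 to 0.42 for Aldh1l1 (edgeR adjusted p = 0.58 and 0.52). The summed oligodendrocyte markers of these libraries were 1630 to 2339 CPM after CFA and 2584 to 4041 CPM in controls, with 3 of 10 called lower. The sums were also lower after CFA for 8 endothelial markers (92.1 to 108 CPM, against 129 to 164 CPM in controls), 8 mural cell markers (121 to 125 CPM, against 139 to 185 CPM, 1 called lower) and 7 neuroblast and dividing cell markers (92.9 to 106 CPM, against 113 to 176 CPM). The part of these in the astrocyte values was not tested.

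Leaving out single libraries left 2 to 6 calls in the mPFC after CFA. Cbs kept its call in each of these fits, with changes between 0.74 and 0.92. Dio2 lost it without control replicate 3 (0.92, edgeR adjusted p = 0.052), and Htra1 without control replicate 2 (0.64, adjusted p = 0.053) or CFA replicate 1 (0.60, adjusted p = 0.057). Ppp1r3c lost it without control replicate 1 or 3 or CFA replicate 1 or 3, with changes of 0.55 to 0.65, and Fam107a without any of the controls or CFA replicate 1 or 3, with changes of 0.90 to 1.05. The count was lowest, at 2, without control replicate 3 (Htra1 and Cbs) or CFA replicate 1 (Cbs and Dio2). With the 9 mPFC libraries alone 7 members were called, the 5 with Gjb6 higher and Id3 lower. Id3, a transcription regulator, had 11.6, 9.86 and 16.8 CPM after CFA, against 19.3, 19.5 and 19.0 CPM in controls (−0.59 ± 0.26, SE, edgeR adjusted p = 0.33 with all libraries).

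Promoter windows are shown for 3 of the genes that rose in the mPFC after CFA: Dio2 for its match to a motif, and Htra1 and Fam107a because they were called after CFA in both regions. Each window runs from 250 bases before the annotated start to 50 bases after it, from RefSeq on GRCm38.p6, printed 5′ to 3′ on the strand of the gene, with motif matches in capitals. Dio2 lies at chr12:90738989-90739288 on the minus strand, Htra1 at chr7:130935953-130936252 on the plus strand and Fam107a, for the most upstream of its 3 windows, at chr14:8317558-8317857 on the minus strand. The RefSeq start of Dio2 lies upstream of the gene's start in GENCODE M21.
Dio2: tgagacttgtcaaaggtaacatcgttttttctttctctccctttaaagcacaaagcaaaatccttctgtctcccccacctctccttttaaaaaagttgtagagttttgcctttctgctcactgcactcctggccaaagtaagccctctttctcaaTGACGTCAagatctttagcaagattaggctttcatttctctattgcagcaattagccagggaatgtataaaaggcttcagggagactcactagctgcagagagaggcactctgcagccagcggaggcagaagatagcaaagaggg
Htra1: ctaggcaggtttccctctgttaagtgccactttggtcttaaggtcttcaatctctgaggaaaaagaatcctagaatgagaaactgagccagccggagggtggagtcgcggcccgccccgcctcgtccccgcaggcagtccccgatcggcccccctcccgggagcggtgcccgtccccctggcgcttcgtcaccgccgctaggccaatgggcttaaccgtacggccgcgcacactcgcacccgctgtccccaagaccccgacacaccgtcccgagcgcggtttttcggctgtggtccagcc
Fam107a: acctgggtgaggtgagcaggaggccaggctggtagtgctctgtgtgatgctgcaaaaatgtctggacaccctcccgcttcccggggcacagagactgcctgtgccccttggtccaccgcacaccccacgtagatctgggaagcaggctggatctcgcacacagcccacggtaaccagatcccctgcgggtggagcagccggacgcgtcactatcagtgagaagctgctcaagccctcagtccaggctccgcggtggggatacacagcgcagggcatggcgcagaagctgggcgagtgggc

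The motifs searched were TGACGTCA, the full cAMP response element, which reads the same on both strands, and AGAACA with its reverse complement TGTTCT, a half-site of the glucocorticoid receptor. They do not overlap each other in these windows. The Dio2 window held TGACGTCA once, with its first base at position −95 counted from the start site, and 1.79% of all 32851 promoter windows of this length held it. None of the 5 genes that rose in the mPFC after CFA held AGAACA in the window read, while 19% of all windows did. There were 41 windows, for 33 of the 38 members. Of these windows 7, or 17.1%, held AGAACA, and 1, or 2.44%, held TGACGTCA. A match is a description of the letters and no evidence of binding.

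Between the pain models in the mPFC, Cbs and Htra1 (2 of 38, or 5.26%) were lower after formalin and none was higher, while 0.932% of all genes passed, with 0.374% higher and 0.558% lower. Groups did not overlap for 17 of the 38, or 44.7%, against 28.3% of all genes. Cbs had 23.8, 26.4 and 28.3 CPM after formalin, against 49.9, 43.3 and 55.8 CPM after CFA (−0.93 ± 0.12, SE, edgeR adjusted p = 0.0012). Htra1 had 107, 126 and 113 CPM after formalin, against 214, 173 and 190 CPM after CFA (−0.74 ± 0.11, SE, edgeR adjusted p = 0.0032). Neither gene overlapped between the models, and both kept the call without any single library. The estimates of the standing markers were −0.37 ± 0.29 for Gfap, 0.51 ± 0.13 for Aqp4, −0.08 ± 0.13 for Slc1a2 and −0.27 ± 0.11 for Aldh1l1 (SE), with edgeR adjusted p of 0.61, 0.051, 0.85 and 0.26 in that order. Aqp4 was at the threshold, with 128, 129 and 141 CPM after formalin, against 89.5, 84.9 and 106 CPM after CFA. It was called higher with DESeq2, RLE factors, no filter, the filter of 1 CPM, the replicate block and lane 2 alone, and in 5 of the 18 fits without 1 library. DESeq2 also called Gjb6, Fam107a and Dio2 lower.

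Htra1 and Fam107a were called higher after CFA in both regions, which is 22.2% of the 9 genes called in the BNST and 40% of the 5 called in the mPFC. The levels of Htra1 after CFA, 176 to 214 CPM in the BNST and 173 to 214 CPM in the mPFC, were nearly the same in both. Whether a change differed between the regions was tested as an interaction. By their animal numbers, each formalin and CFA mouse gave a library of each region, but the model took all libraries as independent. For CFA, 2 of 38 genes differed, both with a larger change in the BNST, while 4.17% of all genes passed, with 1.15% higher and 3.02% lower. Aqp4 differed by 0.86 ± 0.18 (SE, edgeR adjusted p = 0.0088), with an estimate of 0.42 in the BNST and −0.44 in the mPFC. Slc39a12 differed by 0.75 ± 0.19 (SE, edgeR adjusted p = 0.027), with 0.77 in the BNST and 0.02 in the mPFC. In the mPFC Slc39a12 had 38.6, 39.6 and 43.3 CPM after CFA, against 39.5, 39.3 and 40.9 CPM in controls. Both Aqp4 and Slc39a12 were also called with the animal number as a block, chosen after seeing the data.

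The difference was kept for Aqp4 in each of the 18 fits without 1 library (0.70 to 0.98), and was lost for Slc39a12 in 7 of them (0.69 to 0.76, edgeR adjusted p of 0.052 to 0.075). These were the fits without BNST control replicate 2 or 3, any mPFC control, or mPFC CFA replicate 1 or 2. Gfap, which passed after CFA in the BNST and not in the mPFC, had an interaction of 0.93 ± 0.40 (SE, edgeR adjusted p = 0.23), and Dio2 and Cbs, which passed in the mPFC and not in the BNST, had −0.70 ± 0.22 and −0.36 ± 0.17 (adjusted p = 0.079 and 0.27). Dio2 was called as lower in the interaction by DESeq2, which called 3 members for CFA, and by edgeR without BNST formalin replicate 1. For formalin, 0 of 38 genes differed in edgeR and 1, Vim, in DESeq2, while 0.158% of all genes passed in edgeR, 0.0474% of all genes higher, and 9 of the 38 had an unadjusted p under 0.05.

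The regions themselves differed in their astrocyte genes in control mice. Of the 38 genes, 12 (31.6%) were higher in the BNST and 2 were lower, while 26.6% of all genes passed, 14.7% higher and 12% lower. Groups did not overlap for 19 of the 38, or 50%, against 48.5% of all genes. The median of the 38 estimates was 0.41, beside 0.04 over all genes. Agt stood far apart, with 68.0, 108 and 38.1 CPM in the BNST, against 2.15, 4 and 3.54 CPM in the mPFC, a log2 fold change of 4.46 ± 0.43 (SE, edgeR adjusted p = 2.5e-06). Itih3 had 75.1, 121 and 63.6 CPM in the BNST, against 20.4, 20.9 and 22.3 CPM in the mPFC (2.03 ± 0.24, SE, edgeR adjusted p = 1.2e-05). Slc6a11 had 494, 493 and 353 CPM in the BNST, against 152, 161 and 163 CPM in the mPFC (1.49 ± 0.16, SE, edgeR adjusted p = 2.1e-06). In all 3 genes the lowest BNST library was well above the highest mPFC library.

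The glutamate transporters did not share a direction. Slc1a2 was lower in the BNST, with 2617, 2010 and 3085 CPM, against 3740, 4077 and 3837 CPM in the mPFC (−0.60 ± 0.13, SE, edgeR adjusted p = 0.0015). Slc1a3 had 799, 557 and 883 CPM in the BNST, against 507, 560 and 590 CPM in the mPFC, which overlapped (0.43 ± 0.13, SE, edgeR adjusted p = 0.011), and it was called higher without a minimum change and with lane 2 alone. The summed GABAergic markers were 1060 to 1835 CPM in the BNST and 661 to 701 CPM in the mPFC, and those of cortical glutamatergic neurons 56.0 to 197 CPM and 2335 to 2579 CPM. Dio2 was lower in the BNST too, with 35.7, 44.2 and 31.7 CPM, against 90.9, 99.7 and 87.9 CPM in the mPFC (−1.32 ± 0.16, SE, edgeR adjusted p = 5.5e-06). Slc4a4, the sodium bicarbonate cotransporter, had 352, 317 and 319 CPM in the BNST, against 143, 170 and 165 CPM in the mPFC (1.05 ± 0.08, SE, edgeR adjusted p = 2.8e-08), the smallest adjusted p of the list.

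**Figure D5:**
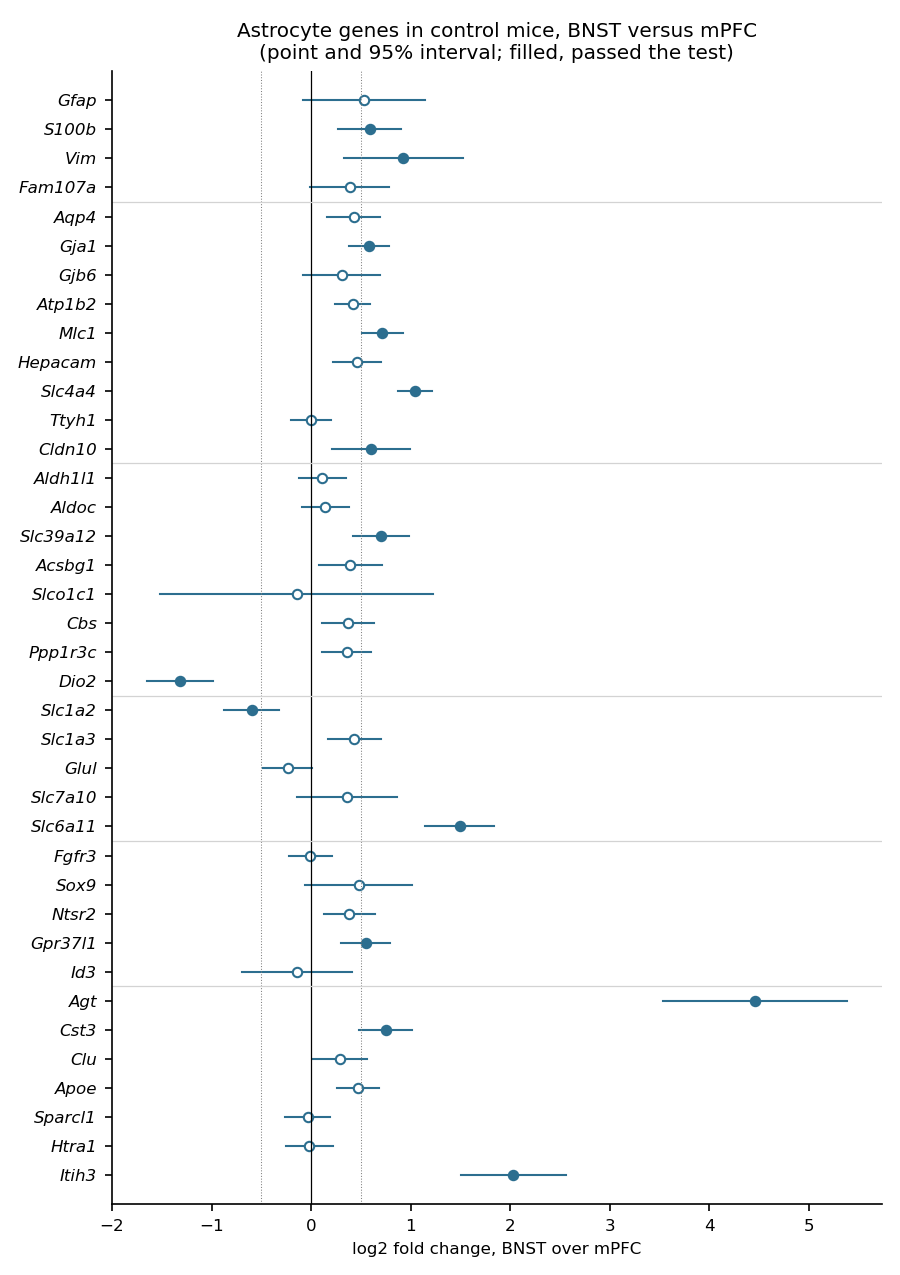
Log2 fold change of the 38 genes between BNST and mPFC of control mice, with 95% intervals, filled points for genes that passed the test and dotted lines at −0.5 and 0.5. Agt is farthest to the right at 4.46, Itih3 and Slc6a11 follow, and Dio2 and Slc1a2 are the filled points on the left.

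Vim had 33.4, 25.5 and 44.3 CPM in the BNST, against 14.97, 15.3 and 24.0 CPM in the mPFC (0.93 ± 0.28, SE, edgeR adjusted p = 0.016). Cst3 had 1043, 737 and 696 CPM in the BNST, against 476, 506 and 489 CPM in the mPFC (0.75 ± 0.13, SE, edgeR adjusted p = 0.00013). The same direction without overlap held for Mlc1, a membrane protein of endfeet (0.72 ± 0.10, SE, edgeR adjusted p = 1.4e-05), and Slc39a12 (0.70 ± 0.13, SE, edgeR adjusted p = 0.00042). The other genes higher in the BNST were Cldn10 (0.60 ± 0.19), S100b (0.59 ± 0.15), Gja1 (0.58 ± 0.10) and Gpr37l1, an orphan receptor (0.55 ± 0.12; all SE). Aldh1l1, Aldoc and Fgfr3 had intervals of −0.12 to 0.35, −0.09 to 0.38 and −0.23 to 0.21. By their animal numbers, 2 of the control mice gave a library of each region. With the animal number as a block, chosen after seeing the data, the calls of S100b (0.44), Gpr37l1 (0.39) and Cldn10 (0.50) were lost and 11 were left. These 3 calls were also lost without BNST control replicate 1 (0.34, 0.36 and 0.40), that of Slc1a2 without BNST control replicate 2 (−0.45), that of Gja1 without BNST control replicate 3 (0.49), that of Vim without BNST control replicate 3 (0.70) or mPFC control replicate 1 or 2 (0.81 and 0.82), and that of Cldn10 also without mPFC control replicate 1 (0.53). Of the 3 BNST control libraries, 2 came from lane 1, and all mPFC libraries from lane 2. With lane 2 alone, 13 members were called and Slc1a2 had −0.33 (edgeR adjusted p = 0.067). Of the 9 genes called after CFA in the BNST, 3 (33.3%) were among the 14 that differed between the regions, Agt, S100b and Slc39a12, and they are 21.4% of those 14; both comparisons share the BNST control libraries.

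Wider lists of astrocyte genes were read beside the 38. Single genes of these lists were not read in the fits with other settings or without single libraries, so their calls were not checked in that way. Of 40 other astrocyte genes, 38 were tested, and after CFA in the BNST 5 were higher and none lower, with a median of 0.22, in a comparison that called 11.9% of all genes. Il33, an alarmin of the interleukin-1 family, rose by 0.95 ± 0.20, Sdc4, a heparan sulphate proteoglycan of the membrane, by 0.93 ± 0.14, Eva1a by 0.68 ± 0.17 and F3, tissue factor, by 0.58 ± 0.10 (SE, edgeR adjusted p = 0.0035, 0.00027, 0.0095 and 0.00086). The range of Sdc4 was 94.5 to 128 CPM after CFA and 44.0 to 72.5 CPM in controls. After formalin in the BNST none of the 38 passed in edgeR, with 8 at an unadjusted p under 0.05, while 0.3% of all genes passed. In the mPFC none passed after formalin, with 3 at an unadjusted p under 0.05, while 0.269% of all genes passed. After CFA in the mPFC, where 0.632% of all genes passed, Lfng, a glycosyltransferase of Notch, rose by 0.75 ± 0.12 and Sdc4 by 0.65 ± 0.15 (SE, edgeR adjusted p = 0.0070 and 0.046).

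Of 39 genes linked to reactive astrocytes, 36 were tested. After CFA in the BNST 9 were higher and 1 lower, with a median of 0.39, beside 0.01 over all genes, of which 4.89% were called higher and 7.06% lower. Fbln5, an elastic fibre protein, rose by 1.61 ± 0.29, C3, complement factor 3, by 1.32 ± 0.40, Hspb1, a small heat shock protein, by 1.24 ± 0.28 and Psmb8, an immunoproteasome subunit, by 1.06 ± 0.31, while B3gnt5 fell by 2.18 (SE 0.56; edgeR adjusted p = 0.0011, 0.028, 0.0049, 0.022 and 0.011). Several of these genes are also made by vessels, leptomeninges or microglia, and C3 overlapped between groups, with 5.68 to 18.9 CPM after CFA and 2.38 to 5.99 CPM in controls. The 36 genes summed to 423, 504 and 394 CPM in BNST CFA replicates 1, 2 and 3, and to 304 to 330 CPM in BNST controls. After formalin in the BNST S1pr3, a sphingosine phosphate receptor, was the 1 gene called, with 0.82 ± 0.15 (SE, edgeR adjusted p = 0.040), while 0.3% of all genes passed. In the mPFC none was called after formalin, with 3 at an unadjusted p under 0.05, and 1 after CFA, while 0.269% and 0.632% of all genes passed in that order. That gene was Fkbp5, a chaperone of the glucocorticoid receptor that glucocorticoids induce in many cells. It ranged from 42.6 to 53.7 CPM after CFA and from 18.3 to 20.1 CPM in controls, and rose by 1.30 ± 0.13 (SE, edgeR adjusted p = 0.00015). In the BNST Fkbp5 rose by 0.65 ± 0.12 after CFA (SE, edgeR adjusted p = 0.0012), and the change was smaller there by 0.65 ± 0.18 (SE, edgeR adjusted p = 0.042).

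Formalin against CFA in the BNST, which called 6.87% of all genes, gave 1 higher and 8 lower of the other astrocyte genes, with Lgr6 (−1.03 ± 0.26), Kcnj16, a potassium channel (−0.86 ± 0.12), Il33 (−0.64 ± 0.20) and Sdc4 (−0.58 ± 0.14, all SE) lowest and Phkg1, of phosphorylase kinase, the one higher (0.58 ± 0.17). Of the reactive list 3 were higher and 3 lower, among them Nes, the intermediate filament nestin, with 1.53 ± 0.29 and Fbln5 with −1.89 ± 0.29 (SE). In the mPFC the same comparison, which called 0.932% of all genes, gave Lfng (−0.62 ± 0.12), Fkbp5 (−1.16 ± 0.13) and H2-T23, a class I histocompatibility gene (−0.69 ± 0.17, all SE). Between regions in control mice, where 26.6% of all genes passed, 12 of the other astrocyte genes were higher in the BNST and 3 lower, led by Il33 (1.38 ± 0.21), Slc14a1, a urea transporter (1.38 ± 0.44), and Chrdl1 (−1.93 ± 0.24), and of the reactive list 9 were higher and 5 lower, led by C3 (4.95 ± 0.63), Lgals3 (3.86 ± 0.79) and Ptgs2 (−3.71 ± 0.74, all SE).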

How the data were processed

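Messenger RNA of 18 libraries (6 groups of 3) was read as 150 bp paired ends. The authors trimmed reads with Trimmomatic 0.39, aligned them with HISAT2 2.2.1 to GRCm38 and deposited raw read counts per gene from featureCounts 2.0.1, whole numbers without normalization, held in 1 table of all libraries whose columns all matched a labelled sample. Of 55401 identifiers, 55141 were given a symbol by stable Ensembl ID in GENCODE M21.

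The tests were run with edgeR 4.0.16 under R 4.3.3. filterByExpr (minimum count 10, minimum total 15) kept 18994 genes, which held 99.9% of counts. TMM factors were used, with 1 quasi-likelihood model of all 18 libraries and 12 residual degrees of freedom. Calls needed a Benjamini-Hochberg adjusted p below 0.05 and a log2 fold change beyond 0.5 in size, after the study's thresholds. The model was also run on simulated counts with known changes in the BNST CFA group only. The simulated counts held no region differences, outlying library or lanes, so that run does not bear on these. TPM used the union of exons. Precision depends on the depth of 14781315 to 23408503 counts. The p-values rest on the spread within groups of 3 mice, estimated over all 6 groups together.

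The 38 members and all lists were chosen with earlier results of these data known. Named were, in each comparison, up to 8 members higher and 8 lower with the largest change among those called, Gfap, Aqp4, Slc1a2 and Aldh1l1 throughout, and up to 4 called genes in each direction of the other 2 astrocyte lists; further members were named after their values were seen. Other lists were the markers of choroid plexus, ependyma, endothelium, mural cells, fibroblasts, microglia, oligodendrocytes, oligodendrocyte precursors, neurons, striatum, habenula and thalamus, dividing cells and blood. Alternatives were DESeq2 1.42.0, RLE factors, other filters, no minimum change, the 9 libraries of a region, lane 2 alone, the replicate number as a block, each library left out, and, chosen after seeing the data, the animal number as a block between regions. Lanes and animal numbers were joined from supplementary columns by equal counts over 367 genes. Replicate numbers were not taken as pairs. Promoter windows came from RefSeq on GRCm38.p6.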

Additional observations from a re-analysis of the deposited data

Results flagged for a closer look

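Aqp4 and Slc39a12 changed differently after CFA in the BNST and in the mPFC by the test of the interaction. For Aqp4 the difference of the CFA change, BNST over mPFC, was 0.86 on the log2 scale (SE 0.18, edgeR adjusted p = 0.0088), with 208, 259 and 218 CPM after CFA against 150, 181 and 180 CPM in controls in the BNST, and 89.5, 84.9 and 106 CPM after CFA against 122, 106 and 153 CPM in controls in the mPFC. For Slc39a12 the difference was 0.75 (SE 0.19, edgeR adjusted p = 0.027). Slc39a12 was highest, at 142 CPM, in BNST CFA replicate 2, the library with the most choroid plexus markers, and without that library the difference was 0.54 (edgeR adjusted p = 0.027), while that of Aqp4 was 0.76 (adjusted p = 0.017). The part of the choroid plexus markers in either value was not tested. Groups of 3 libraries are too small for a search for single outlying samples.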

How the results depend on the processing

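The count of astrocyte genes called depended on the processing where few passed. After formalin in the BNST it was 1, and 7 with DESeq2 (6 higher, and Itih3 lower), 2 without a filter on low counts, and 0 with a filter of at least 1 CPM, with the 9 BNST libraries alone or with lane 2 alone, and 0 to 7 without single libraries. After CFA in the BNST it was 9, 18 without a minimum fold change, 6 with the 9 BNST libraries alone, 13 with lane 2 alone (without Gfap or Apoe), and 7 to 13 without single libraries. Formalin against CFA in the BNST gave 11, 2 with the 9 BNST libraries alone and 5 to 17 without single libraries. In the mPFC the count after formalin was 0 under every alternative. It was 5 after CFA, 7 with the 9 mPFC libraries alone (Id3 lower), 6 with DESeq2 and with lane 2 alone, and 2 to 6 without single libraries. Formalin against CFA in the mPFC gave 2, 6 with DESeq2, with the 9 mPFC libraries alone and with lane 2 alone, and 2 to 5 without single libraries. Between regions in controls it was 14, 23 without a minimum fold change and 12 to 18 without single libraries. The interaction gave 0 for formalin, 1 with DESeq2 and 0 to 3 without single libraries, and 2 for CFA, 3 with DESeq2, 5 with lane 2 alone and 1 to 3 without single libraries. With the replicate number as a block the counts were 1, 9, 11, 0, 5, 3, 14, 0 and 2 in the order above. The residuals of libraries with the same number correlated by −0.19 to 0.31, above 0.1 in 4 of 18 pairs, so the numbers were not taken as pairs. With the animal number as a block, chosen after seeing the data, the region comparison gave 11, and the interaction gave 0 for formalin and 2 for CFA. The causes were not tested, beyond the smaller number of libraries in some fits. Of the 65 changes of named genes under all alternatives, 1561 values kept the side of the threshold, 110 lost the call, 19 gained it and none reversed a call. Among the 1561, estimates of genes not called could change sign. That of Slc1a2 after formalin in the BNST was 0.09 in the main model and −0.27 at its lowest. Lane and group could not be fully separated in the BNST, where lane 2 held 1 control library. With 3 mice per group, changes inside the stated intervals of genes not called remain possible.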
